A study of Mus musculus with 12 samples.

Results

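Merging the ATAC-seq peaks of 12 mouse CD4+ T cell libraries gave 110642 regions on chromosomes 1 to 19 and X. Of these, 7651 had a peak in every library and were narrower than 1000 bp after merging, and they are called narrow shared regions here. Another 6910 regions had a peak in every library but measured 1000 bp or more, which made 14561 shared regions in all, and 93421 regions were narrow but lacked a peak in at least 1 library. The regions were chosen by measured values, the presence of a peak in each list and the merged width, so both are given as a description and were not tested. The rule selects no cell type and no condition.

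The libraries fall into 6 groups of 2. They are naive cells of the strain C57BL/6J-Ets1-SE-KO, naive cells of wild type C57BL/6J, and Th1 and Th2 cells of each of the same strains. The name of the first strain points to a super-enhancer of Ets1, which encodes a transcription factor of the ETS family, but the sources used here give neither the coordinates of the deletion nor the age of the mice. Splenic CD4+ T cells were isolated by negative selection on beads. Naive cells were used directly, with 2 technical replicates of 1 biological sample per genotype. Polarized cells were cultured for 6 days on plate-bound anti-CD3 with soluble anti-CD28. Their titles give 2 biological replicates per group, except for Th2 KO cells, whose titles conflict with their source names. Th1 cultures received IL-12 and IL-2, and Th2 cultures received IL-4 with anti-IFN-γ. Cultures may still hold cells that did not take the intended fate.

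The lists held 34746 to 56357 peaks. Their read depth is unknown. Peak scores are the authors' values within each list and were only ranked, so all comparisons are descriptive. Between 2 groups of 2 libraries, as in the knockout comparisons, an exact two-sided permutation test could not give a p below 0.3333. The peak names carry a different run tag in naive and in polarized lists, so cell state and that tag cannot be told apart. Both naive KO libraries had a peak at 0 of 4 Y-linked genes (Ddx3y, Eif2s3y, Uty and Kdm5d), whereas the other 10 libraries had one at 4 of 4. Genotype and sex therefore cannot be told apart in naive cells. The titles of the Th2 KO libraries call them further technical replicates of Th1 KO cells, while their source names say Th2; they had peaks at 4 of 4 Th2 markers (Gata3, Il4, Il5, Il13) and at 2 and 1 of 3 Th1 markers, and were taken as Th2. T cell markers had peaks at 6 or 7 of 7 genes in every library. B cell markers had peaks at 5 of 5 genes in both naive KO libraries, at 3 in both naive WT libraries and at 1 or 2 in polarized libraries. NK and CD8 markers had peaks at 0 to 2 of 4 genes in polarized libraries and at 3 of 4 in all naive libraries. Myeloid markers had peaks at 2 to 4 of 5 genes and red cell markers at 2 or 3 of 5 in every library. The part of other cells in the results below was not tested.

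ATAC-seq uses a transposase that inserts adapters where DNA is accessible, so a peak marks a stretch free of closely packed nucleosomes. Promoters of genes that every cell needs usually lie in CpG islands and stay open in most cell types. Enhancers tend to open only in the cells that use them, and sites of the insulator protein CTCF are open in many tissues. Regions open in naive, Th1 and Th2 cells alike form a background against which opening specific to one T helper fate can be read.

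The sequences below show promoters from narrow shared regions that differ in motif and CpG content. They are the 250 bases before the start site of 8 genes, read 5′ to 3′ on the strand of the gene, from RefSeq promoter windows on GRCm38.p6. The first set has motif matches in capitals and comes from narrow shared regions that ranked near the top in every library. Snrnp25 encodes a protein of the minor spliceosome (chr11:32205165-32205414, plus strand), and its capitals mark 3 matches to the NFY motif and 1 to the SP/KLF motif. Cnot3 encodes a subunit of the CCR4-NOT deadenylase (chr7:3645019-3645268, plus strand), and its capitals mark 2 NFY matches and 1 SP/KLF match. Cenpf encodes a kinetochore protein (chr1:189688087-189688336, minus strand), and its capitals mark an SP/KLF match followed by an ETS match. Prcc encodes a protein linked to mitotic checkpoint control (chr3:87885563-87885812, minus strand), and its capitals mark a ZNF143 match.
Snrnp25: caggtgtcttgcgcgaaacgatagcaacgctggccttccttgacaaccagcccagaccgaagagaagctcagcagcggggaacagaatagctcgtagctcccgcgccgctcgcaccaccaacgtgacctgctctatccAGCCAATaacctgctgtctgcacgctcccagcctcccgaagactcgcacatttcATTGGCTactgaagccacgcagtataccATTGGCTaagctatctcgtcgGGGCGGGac
Cnot3: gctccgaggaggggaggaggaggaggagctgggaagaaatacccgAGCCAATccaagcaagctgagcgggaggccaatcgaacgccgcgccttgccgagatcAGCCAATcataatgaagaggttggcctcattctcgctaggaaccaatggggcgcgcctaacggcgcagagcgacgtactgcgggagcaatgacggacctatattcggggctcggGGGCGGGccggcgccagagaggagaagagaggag
Cenpf: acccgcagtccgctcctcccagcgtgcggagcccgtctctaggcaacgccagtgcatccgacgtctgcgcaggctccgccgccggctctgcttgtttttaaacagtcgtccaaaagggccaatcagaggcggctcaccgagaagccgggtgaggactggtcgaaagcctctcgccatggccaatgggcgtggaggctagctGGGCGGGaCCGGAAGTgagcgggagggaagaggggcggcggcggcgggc
Prcc: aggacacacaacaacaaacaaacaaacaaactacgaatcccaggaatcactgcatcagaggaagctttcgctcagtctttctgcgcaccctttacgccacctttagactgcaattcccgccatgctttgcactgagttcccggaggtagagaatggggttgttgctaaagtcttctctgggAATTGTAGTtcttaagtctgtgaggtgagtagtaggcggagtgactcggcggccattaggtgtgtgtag

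The second set has CpG dinucleotides in capitals and was picked from T cell genes whose windows are poor in CpG. Other genes of T helper cells had CpG-rich windows, such as Klf2 with 32 CpGs and Il4ra with 25. Lck encodes the kinase that starts signalling from the T cell receptor (chr4:129558373-129558622, minus strand), Cd3e encodes a chain of that receptor complex (chr9:45009612-45009861, minus strand), and Lat encodes the adaptor that links it to downstream signalling (chr7:126369569-126369818, minus strand). Runx3 encodes a transcription factor of Th1 and CD8+ cells (chr4:135120395-135120644, plus strand). The full windows, which add 50 bases after the start, held 5 CpGs at Lck, 8 at Cd3e, 10 at Lat and 8 at Runx3. The Snrnp25, Cnot3 and Cenpf windows held 22, 28 and 31, and the Prcc window held 11.
Lck: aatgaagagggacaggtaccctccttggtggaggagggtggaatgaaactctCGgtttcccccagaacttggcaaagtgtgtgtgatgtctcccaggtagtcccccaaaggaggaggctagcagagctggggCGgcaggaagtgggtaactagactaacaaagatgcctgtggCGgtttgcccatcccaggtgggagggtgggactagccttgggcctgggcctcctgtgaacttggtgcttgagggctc
Cd3e: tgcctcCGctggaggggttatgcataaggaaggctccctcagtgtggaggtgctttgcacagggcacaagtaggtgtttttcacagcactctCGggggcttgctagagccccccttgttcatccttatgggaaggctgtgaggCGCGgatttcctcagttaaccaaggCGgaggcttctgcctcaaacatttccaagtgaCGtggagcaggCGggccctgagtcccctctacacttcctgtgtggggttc
Lat: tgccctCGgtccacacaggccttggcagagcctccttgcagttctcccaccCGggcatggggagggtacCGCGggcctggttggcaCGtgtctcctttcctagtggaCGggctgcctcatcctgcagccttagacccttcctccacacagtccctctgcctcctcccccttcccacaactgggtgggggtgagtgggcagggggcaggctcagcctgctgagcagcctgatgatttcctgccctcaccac
Runx3: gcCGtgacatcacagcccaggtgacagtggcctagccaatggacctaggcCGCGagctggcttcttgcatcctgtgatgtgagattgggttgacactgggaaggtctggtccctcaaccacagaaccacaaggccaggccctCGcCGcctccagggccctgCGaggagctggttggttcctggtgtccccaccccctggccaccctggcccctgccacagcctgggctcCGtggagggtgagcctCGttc

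Narrow shared regions lay at promoters far more often than other narrow regions, yet most of them lay elsewhere. A start of a protein-coding gene was listed within 500 bp of 2705 of the 7651 regions, or 35.4% (95% Wilson interval 34.3 to 36.4%, counting error only). The share was 62.6% of the shared regions of 1000 bp or more, 3.35% of narrow regions not shared by all libraries and 9.52% of all merged regions. A further 541 regions (7.07%) touched an end of a gene whose start was not listed. Gene bodies held 2215 regions (29.0%), and 2190 (28.6%) lay outside protein-coding genes. The last 2 classes together, 4405 regions, are called distal below. The median distance to the nearest listed start was 10951 bp, and 24.95% lay more than 50 kb away.

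**Figure D1:**
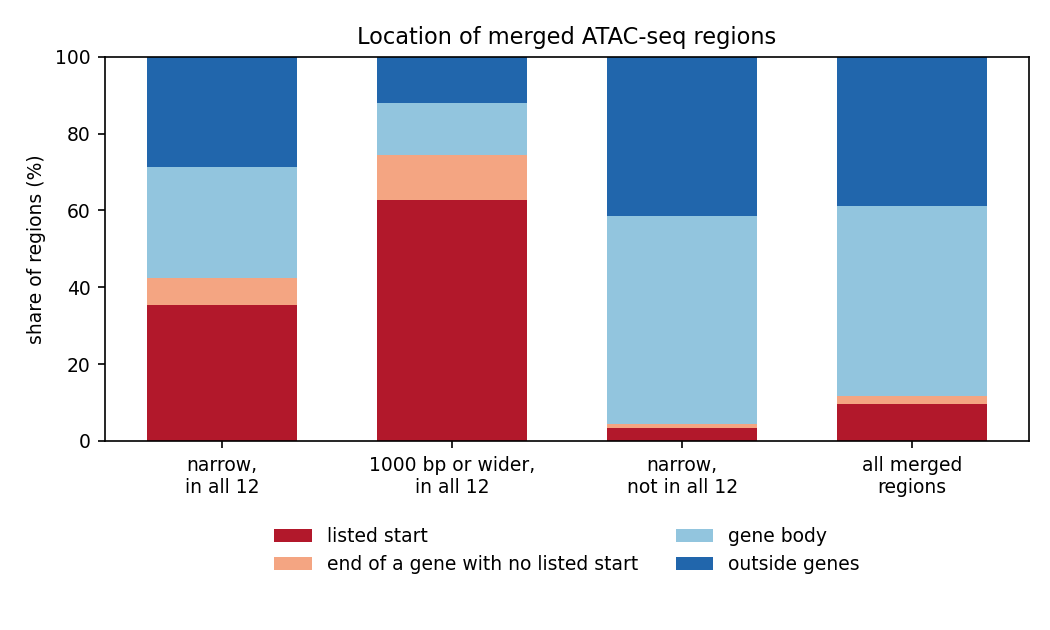
Each bar splits a set of merged regions by location, as a share of regions in percent: listed protein-coding starts within 500 bp, ends of genes with no listed start, gene bodies, and outside genes. Starts took 35.4% of the narrow regions with a peak in all 12 libraries, 62.6% of the wider ones and 3.35% of the narrow regions that were not in all 12.

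The share of shared regions that stayed under the width limit depended on location. It was 38.5% at listed starts, 70.6% in gene bodies and 72.3% outside genes. Starts of genes on both strands occurred at 195 of the 2705 narrow start regions (7.21%) and at 567 of the 4328 wide ones (13.1%). Narrow shared regions had a median merged width of 776 bp and a range of 283 to 999 bp. The widest, at 999 bp, were at or near Ip6k1, Cibar2, Insr and Crtc3, and 10.4 kb from Dyrk1b. The narrowest regions just outside the limit, at 1000 bp, were at A130010J15Rik, Phlda1 and Ltn1, 26.8 kb from Gatd3a and 42.5 kb from D16Ertd472e. The narrowest of all, 283 bp, lay 305 kb from Alkbh8. A limit of 800 bp would leave 4203 regions and one of 1500 bp would take in 13160.

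The 12 libraries placed their peaks over the same bases only in part. The stretch covered by a peak of every library, called the core, had a median length of 297 bp, or 41.1% of the merged width (quartiles 28.6 and 52.2%). The core was larger at listed starts, with a median of 47.8%, than in gene bodies (35.5%) or outside genes (37.3%). In 171 regions no single base was covered in all 12 libraries. The peak centres lay close to the start site: in the 2251 regions with 1 listed start, the median centre was 11.5 to 44 bp upstream of it across libraries. The merged width takes in the union of all lists, so core and width are related by construction.

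To compare libraries of unequal length, the deposited peak scores were ranked within the 14561 shared regions of each library, and ranks are given as percentiles from 0 (lowest score) to 100. All 7651 narrow shared regions had a value in all 12 libraries. Their median percentile was 43.8 to 50.2 over the libraries. They are themselves 7651 of the 14561 ranked regions, so a median near the middle is partly built in. Start regions ranked above distal ones in 12 of 12 libraries: medians were 53.7 to 62.8 at starts and 35.2 to 45.4 at distal regions. The gap was 26.4 and 26.7 points in naive KO libraries, against 14.2 and 12.5 in naive WT libraries. It was 21.2 and 20.6 points in Th1 KO libraries and 16.6 and 22.4 in Th1 WT libraries, and 13.5 and 9.45 points in Th2 KO libraries and 8.80 and 12.2 in Th2 WT libraries. The naive groups did not overlap, while the Th1 and the Th2 genotypes did. The authors' fold enrichment over background had medians of 4.61 to 7.92 in narrow shared regions, 4.42 to 6.79 in wide shared regions and 3.96 to 5.10 over all peaks. By fold enrichment in place of score, narrow shared regions ranked higher, at medians of 49.4 to 58.1.

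**Figure D2:**
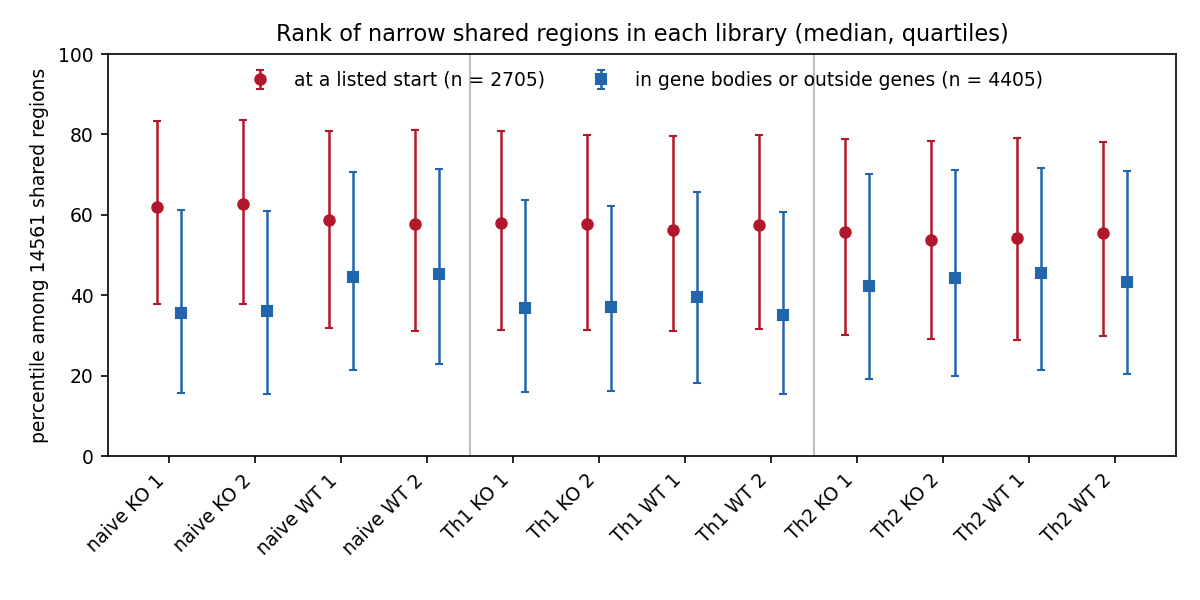
Points give the median percentile by score among the 14561 shared regions in each of the 12 libraries, and bars the quartiles over regions, for narrow shared regions at a listed start (n = 2705) and in gene bodies or outside genes (n = 4405). Start regions lie above distal regions in every library, and the gap is 26.4 and 26.7 points in the naive KO libraries against 14.2 and 12.5 in the naive WT libraries.

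The 5 start regions with the highest median percentile were those of Zfp317, Khsrp (an RNA-binding protein of splicing and mRNA decay), Hsd17b12, Evi5l and Eif2ak3 (the kinase PERK of the unfolded protein response), and they were named after their values were seen. Hsd17b12, an enzyme of fatty acid elongation, had its start region at chr2:94157615-94158521 and stood at percentiles 99.6 to 99.9 in all 12 libraries, with 7.37- to 13.1-fold enrichment. The other 4 were at 98.0 or above in every library. The start of Atp5b, the beta subunit of mitochondrial ATP synthase, lay at 90.4 to 99.6, and that of Psma5, a subunit of the proteasome core, at 86.6 to 99.2. A total of 129 narrow shared regions moved by less than 10 percentile points over the 12 libraries, and 89 of them were start regions and 27 distal. The median range over libraries was 43.8 points at starts, 56.5 points at distal regions and 43.4 points in wide shared regions.

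The top of the whole list looked different from its promoters. None of the 10 regions with the highest median percentile lay at a listed start. They were narrow (median 466.5 bp, against 776 bp for all narrow shared regions), had nearly coincident peaks (median core 87.7%, against 41.1%) and had a median enrichment of 18.4-fold, against 4.98-fold. The first, at chr9:35305149-35305651, ranked first in every library with 19.2- to 21.4-fold enrichment. Others lay at chr9:123461798-123462190 in the body of Lars2, chr11:109011511-109012177 at 60.7 kb from Axin2, chrX:143482859-143483257 at 35.1 kb from Pak3, and in the bodies of Cdk8 and Chl1. A region of 365 bp in the body of Gphn (chr12:78350809-78351173) stood at 99.9 in all 8 polarized libraries, against 85.9 and 55.3 in naive KO and 26.5 and 11.3 in naive WT libraries. No list of repeated or high-signal sequence was applied here, and the part of such sequence in these peaks was not tested.

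Genes of basic cell functions often had a narrow shared region at their start. Over all protein-coding genes with a listed start, 2882 of 17274 did, which is 16.7%. The share exceeded this in 17 of 21 gene lists. A merged region of any kind was found at the start of 10306 of the 17274 genes. The same held for 19 of 19 mitochondrial ribosome genes, 15 of 15 DNA repair genes and 3 of 6 myeloid genes. The 16.7% thus also counts genes with no region there, and lists were not compared among genes with a region alone. Over the 8 lists of basic cell functions, 71 of 137 genes (51.8%) had a narrow shared region at their start. The mitochondrial ribosome led with 13 of 19 genes, among them Mrps9 (75.7 to 96.1), and the proteasome followed with 11 of 21, the spliceosome with 10 of 18 (such as Sf3b1 and Prpf8) and RNA polymerase II with its general factors with 10 of 21 (such as Taf1 and Gtf2b). The respiratory chain had 7 of 14 genes, cytosolic ribosomal proteins 9 of 20, aminoacyl-tRNA synthetases 6 of 14 and classical housekeeping genes 5 of 10. Tars, the threonyl-tRNA synthetase, stood at 81.03 to 99.3, and Atm, the kinase that senses DNA breaks, at 85.1 to 99.3. Wide shared regions were frequent at these starts as well: 63 of the 137 genes (46.0%) had one, against 4876 of 17274 (28.2%) over all genes. Cytosolic ribosomal proteins had 11 of 20, RNA polymerase II 11 of 21 and the synthetases 8 of 14. All 8 genes of CTCF and cohesin with a listed start had a wide shared region there and 0 of 8 a narrow one.

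Genes of T cells and T helper fates were present too. Of 16 T cell identity genes with a listed start, 7 had a narrow shared region there: Cd3e, Cd3g, Lck, Lat, Lef1, Bcl11b and Satb1. Their median percentile was 25.6, against 57.8 over all genes with a narrow shared region at the start. Of 9 naive and memory genes, 3 had one (Klf2, Lef1 and Cd44), with a median of 28.6. Th1 genes had 5 of 17 (Runx3, Id2, Il18r1, Il18rap and the interferon-γ receptor chain Ifngr1), Th2 genes 3 of 16 (Il4ra, Ccr4 and Junb), and the ETS family 3 of 14 (Elf1, Elf4 and Elk1). The medians of these were 71.8 for Th1, 37.8 for Th2 and 55.3 for ETS genes. Among genes of other cells, 1 of 6 B cell genes had one (Cr2, the complement receptor 2), and 0 of 6 myeloid and 0 of 5 red cell genes did. Of the remaining lists, DNA repair had 4 of 15, cullin ubiquitin ligases 4 of 14, autophagy and lysosome 4 of 18, and transcription factors of housekeeping promoters 5 of 19.

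Promoter sequence separated the sets as well. In 2839 windows of narrow shared regions, covering 2602 genes, the median GC content was 60% and the median CpG count 20, against 64% and 25 in 5359 windows of wide shared regions and 56.7% and 13 in all 21045 protein-coding windows. Windows with an observed-to-expected CpG ratio under 0.48, called CpG-poor, made up 9.79% of the narrow set, 5.19% of the wide set and 43.8% of all windows. The ratio was 0.211 at Lck, 0.310 at Lat and 0.264 at Runx3, and 0.627 at Prcc, 0.892 at Snrnp25, 0.926 at Cnot3 and 0.963 at Cenpf. It was 0.889 at Klf2 and 0.935 at Il4ra. Windows with a ratio over 0.75, called CpG-rich, made up 55.1% of the narrow set, 69.7% of the wide set and 33.9% of all windows.

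Of 16 motifs searched on both strands, 10 were more frequent in narrow shared windows than in all windows. The ETS motif CCGGAAGT occurred in 12.6% of narrow shared windows, 10.7% of wide shared windows and 5.20% of all windows. The NFY motif AGCCAAT occurred in 16.0%, 12.3% and 9.36%, and the YY1 motif AAGATGGCG in 5.28%, 3.47% and 1.84%. The ZNF143 motif ACTACAATT was rarer, at 1.34%, 0.728% and 0.513%. The SP/KLF motif GGGCGGG occurred in 48.5% of narrow, 56.3% of wide and 34.2% of all windows, and the NRF1 motif in 4.86%, 6.53% and 2.76%. The CRE motif TGACGTCA occurred in 3.80% of narrow and 2.26% of all windows, the ZBTB33 motif CTCGCGAGA in 1.76% and 0.974%, and the E-box TCACGTGA in 2.40% and 1.24%. The CTCF motif was found in 0.141% and 0.0808%. A window could count for several motifs, and matches could overlap. The TATA motif TATAAAA was less frequent in narrow shared windows than in all windows, at 2.08% against 5.07%. The same held for the AP-1 motif TGANTCA at 4.61% against 7.04% and for the GATA motif AGATAAG at 1.51% against 2.63%. The TCF/LEF motif CTTTGAA had 3.45% against 4.55%, the RUNX motif TGTGGTTT 1.06% against 1.62%, and the T-box motif AGGTGTGA 0.916% against 1.16%. No motif of the 16 was found in 24.7% of narrow shared windows and in 39.3% of all windows. A match is a stretch of letters, and binding was not measured. The shares were not adjusted for base composition.

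**Figure D3:**
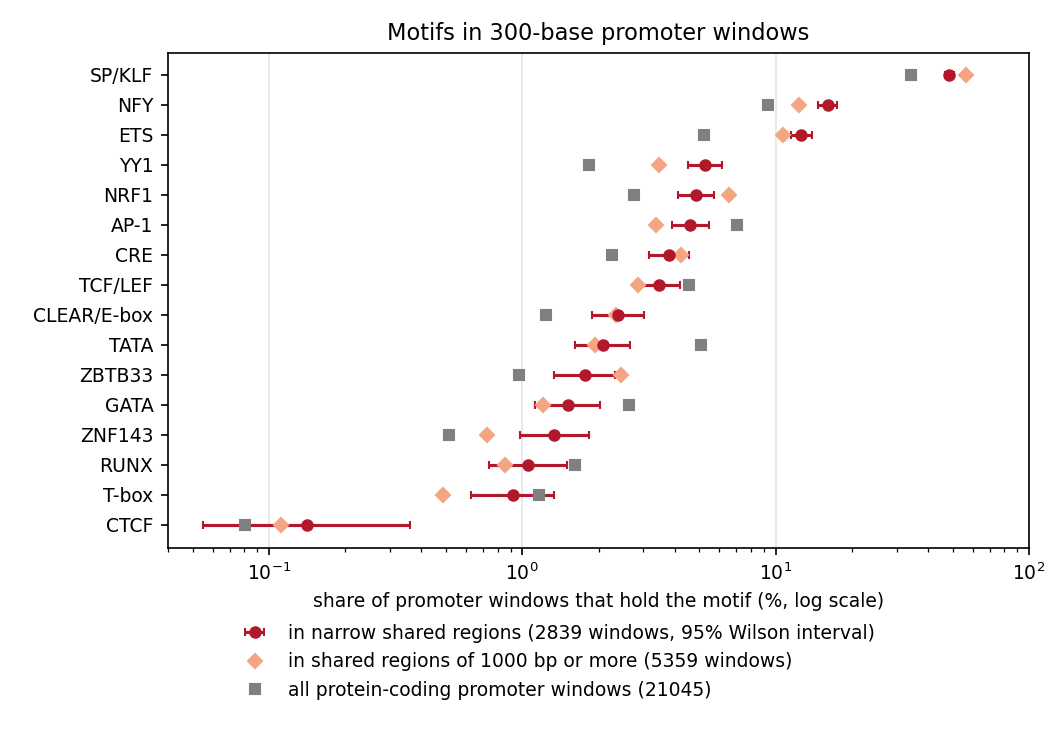
Each row is a motif, and the axis gives the share of promoter windows with a match in percent: red circles for the 2839 windows in narrow shared regions with 95% Wilson intervals, diamonds for the 5359 in wide shared regions and squares for all 21045. NFY (16.0, 12.3 and 9.36%) and ETS (12.6, 10.7 and 5.20%) are highest in the narrow shared set, and SP/KLF (48.5, 56.3 and 34.2%) is highest in the wide shared set.

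Ranks differed with the motif matched, beside a median percentile of 56.6 over all 2705 start regions. Narrow shared regions with an NFY match (n = 400) had a median percentile of 76.6 and those with a ZNF143 match (n = 32) of 74.3. The medians were 67.1 with GATA (n = 41), 64.2 with T-box (n = 23), 64.0 with YY1, 63.9 with ZBTB33, 62.3 with ETS, 60.2 with SP/KLF, 58.8 with NRF1 and 58.2 with CRE. They were lower with TATA (55.3), AP-1 (54.3), RUNX (51.7), TCF/LEF (51.3), E-box (51.0) and CTCF (45.5, n = 4). Ranks of the 258 CpG-poor start regions differed between naive and polarized libraries, whose run tags also differ. The medians of these regions were 43.9 to 47.2 in Th1 libraries, 48.8 to 52.3 in Th2 libraries and 58.6 to 67.2 in naive libraries. The 1347 CpG-rich ones had medians of 57.2 to 67.3 in all libraries. In naive WT libraries the CpG-poor regions ranked above the CpG-rich ones by 6.96 and 6.15 points, and in the other 10 libraries they ranked below.

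Polarized cells were set against naive cells, whose lists also differ in run tag, to find which always-open regions ranked differently. A region was called where the percentiles of the groups did not overlap and their means differed by 20 points or more. Of the 7651 regions, 591 ranked higher in polarized cells (7.72%, against 7.19% of all shared regions) and 702 ranked lower (9.18%, against 7.27%). Distal regions were called in both directions about equally, 11.6% higher and 11.5% lower, and start regions less often, 2.29% higher and 5.95% lower. In wide shared regions, distal ones were 16.0% higher and 11.2% lower, and start ones 3.42% higher and 3.10% lower. Without the naive KO libraries 893 ranked higher (11.7%, against 12.7% of all shared regions) and 1328 lower (17.4%, against 13.7%). These held 577 of the 591 and 694 of the 702. CpG-poor start regions ranked lower in 46 of 258 cases (17.8%) and CpG-rich ones in 52 of 1347 (3.86%).

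The largest differences were in gene bodies. A region in Pdlim5, a PDZ and LIM domain scaffold protein (chr3:142331007-142331861), stood at 99.6, 98.3, 96.0 and 98.3 in Th1 libraries and 99.6, 99.4, 99.8 and 99.8 in Th2 libraries, against 4.62, 0.237, 5.99 and 4.25 in naive libraries. The groups were 95.1 points apart. A region in Kif3b, a kinesin motor subunit (chr2:153292070-153292936), stood at 86.0 to 98.6 in polarized libraries, against 0.0309 to 2.50 in naive ones, a difference of 92.8 points. The opposite held in Ucp2, a mitochondrial carrier (chr7:100495536-100496211), with 1.67, 7.43, 5.68 and 8.69 in Th1 libraries and 7.34, 8.38, 17.0 and 9.42 in Th2 libraries, against 88.6, 89.1, 91.5 and 92.9 in naive libraries. Its enrichment was 2.79- to 3.41-fold in polarized and 6.87- to 9.73-fold in naive libraries, with no overlap. A region in Arid1b, a subunit of the BAF remodelling complex (chr17:5006955-5007606), had a difference of -82.5 points, but its libraries shared no common base.

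A few promoters of the T cell and Th1 lists ranked lower in polarized cells. The Lck start region (chr4:129558274-129559021) stood at 23.8, 4.11, 3.25 and 6.05 in Th1 and 0.862, 7.96, 1.23 and 2.59 in Th2 libraries, against 44.4, 56.9, 63.3 and 63.8 in naive libraries. All 8 polarized values lay below all 4 naive ones, and the means differed by -50.9 points. Klf2, a factor that keeps T cells quiescent and recirculating (chr8:72318695-72319513), stood at 5.17 to 72.9 in polarized libraries, against 75.5 to 87.4 in naive ones (-40.2 points). Runx3 (-36.8 points) and Id2 (-28.4 points), both of the Th1 list, were called lower as well. Cd3g differed by -46.0 points with overlapping values. In the 2 T cell lists together, 2 of 9 start regions were called lower and 0 higher. In the 8 lists of basic cell functions, 1 of 71 was called lower (Tbp) and 0 higher. Over all start regions of the narrow set, 5.95% were called lower and 2.29% higher.

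Th1 cells were set against Th2 cells across both genotypes. Of the 7651 regions, 197 ranked higher in Th1 cells (2.57%, against 3.29% of all shared regions) and 384 ranked lower (5.02%, against 3.66%). The regions lower in Th1 cells were mostly distal: 328 of 4405 distal regions (7.45%) against 47 of 2705 start regions (1.74%). Wide shared regions were lower in 6.01% of distal and 0.809% of start regions. Leaving out the Th2 KO libraries, whose labels conflict, gave 399 higher and 726 lower, and these held 173 of the 197 and 360 of the 384. WT libraries alone gave 657 (8.59%, against 9.94%) and 1035 (13.5%, against 10.1%). Fewer libraries must then fail to overlap, which favours larger counts.

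A region in the body of Cd44, which encodes the hyaluronan receptor of activated and memory T cells (chr2:102812684-102813323), stood at 86.7, 95.8, 91.0 and 75.4 in Th1 libraries, against 18.4, 15.3, 8.66 and 8.41 in Th2 libraries. It lay 74.5 points higher in Th1 cells, and naive libraries were low too, at 0.821 to 17.2. The Cd44 start region itself differed by 0.991 points between Th1 and Th2 cells. A region in Heg1, a transmembrane protein known from heart and vessel development (chr16:33698055-33698802), stood at 11.6, 37.6, 59.6 and 3.95 in Th1 libraries, against 93.8, 97.1, 95.3 and 95.1 in Th2 libraries. An intergenic region 101 kb from Tnfaip3, the gene of the NF-κB inhibitor A20 (chr10:19116805-19117595), stood at 15.5, 42.1, 37.1 and 8.22 in Th1 libraries, against 93.7, 90.6, 91.7 and 87.5 in Th2 libraries, and at 97.3 to 99.5 in naive libraries. Regions near Nrp1 (-70.5 points), Egf (-62.4) and Nrip1 (-61.6) were also lower in Th1 cells. Of the lineage lists, no start region of the 5 Th1 genes or 3 Th2 genes was called between Th1 and Th2 cells.

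**Figure D4:**
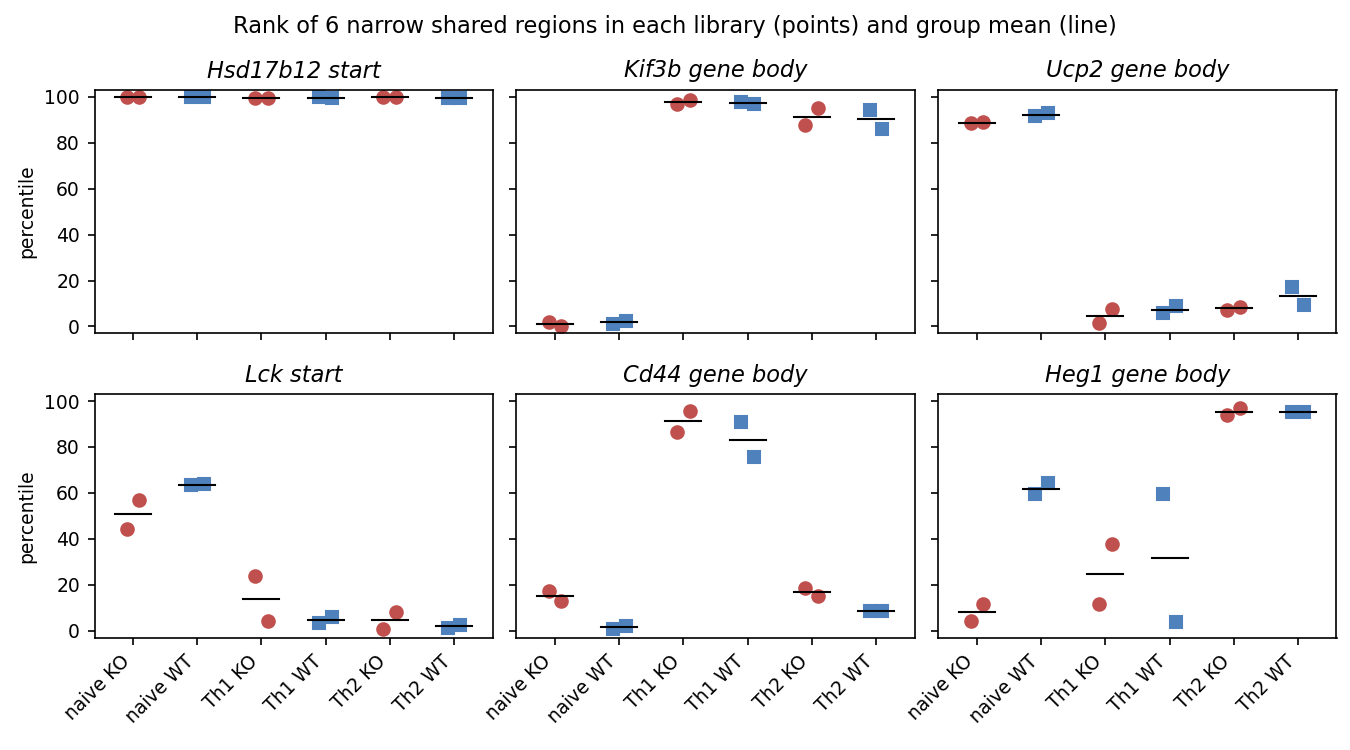
Each panel is a narrow shared region, and points give its percentile by score among the shared regions in each library, with KO (red circles) and WT (blue squares) of naive, Th1 and Th2 cells side by side and a line at each group mean. The Ucp2 region lies at 1.67 to 17.0 in polarized libraries and at 88.6 to 92.9 in naive ones, and the Cd44 region is high only in the Th1 libraries, at 75.4 to 95.8.

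The knockout comparisons were made within each cell state. In naive cells, 431 regions ranked higher in KO (5.63%, against 7.57% of all shared regions) and 887 ranked lower (11.6%, against 8.80%). With a limit of 30 points in place of 20, the counts were 128 and 317, and the share over all shared regions is not given for that limit. The direction followed location. Start regions were higher in 8.87% and lower in 2.26%, and distal regions higher in 3.59% and lower in 18.6%. Wide shared regions split alike, with 11.8% higher and 2.22% lower at starts and 3.80% higher and 16.1% lower at distal ones. Of the CpG-poor start regions 10.1% were lower, and of the CpG-rich ones 0.594%. In the lists, 8 of 71 start regions of basic cell functions were higher and 0 lower, such as the proteasome genes Psmc2, Psmd1 and Psmd2, and 2 of 9 T cell start regions were lower and 0 higher. Those 2 were Cd3e, at 10.96 and 13.9 in KO against 40.9 and 28.1 in WT, and Bcl11b, the factor of T cell commitment, at 62.3 and 45.8 in KO against 80.5 and 74.2 in WT. The largest differences were a region in Clec1a, a C-type lectin receptor (chr6:129434204-129434738), at 69.2 and 61.1 in KO against 7.18 and 13.4 in WT, and an intergenic one nearest to Sertad2 (chr11:20477151-20478004), at 1.64 and 1.38 in KO against 63.0 and 69.3 in WT. Median -log10 q in narrow shared regions was 9.90 and 12.4 in naive KO libraries and 22.8 and 28.7 in naive WT libraries. Each genotype is 1 biological sample here, and the part of signal strength, sex or other cells in these differences was not tested.

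In Th1 cells, 562 regions ranked higher in KO (7.35%, against 6.24% of all shared regions) and 575 ranked lower (7.52%, against 6.39%). Start regions were higher in 6.10% and lower in 5.84%, and distal regions were higher in 8.01% and lower in 8.69%. Spearman correlations of ranks over these regions, which share their libraries, were 0.713 to 0.752 between KO and WT libraries and 0.748 and 0.742 within each genotype. Leaving out any 1 of the 4 Th1 libraries gave 853 to 1056 higher and 914 to 1002 lower. Fewer values must then fail to overlap, and the part of replicate spread was not tested. The start region of Mtx3, a metaxin of the mitochondrial outer membrane, stood at 64.0 and 85.3 in KO against 7.84 and 16.5 in WT. A region in Peli2, an E3 ubiquitin ligase, stood at 3.57 and 21.0 in KO against 67.6 and 68.2 in WT. The Runx3 start region (chr4:135120104-135120781) stood at 38.4 and 42.7 in KO against 76.3 and 75.2 in WT, a difference of -35.2 points. In Th2 cells it stood at 48.3 and 21.2 in KO against 74.3 and 40.1 in WT, which overlapped.

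In Th2 cells, 493 regions ranked higher in KO (6.44%, against 5.84% of all shared regions) and 540 ranked lower (7.06%, against 5.94%). The correlations were 0.753 to 0.773 between genotypes and 0.762 and 0.769 within KO and WT. Leaving out any 1 of the 4 Th2 libraries gave 854 to 903 higher and 891 to 970 lower. The start region of Dgkz, a diacylglycerol kinase that dampens T cell receptor signalling, stood at 58.8 and 50.7 in KO against 4.23 and 1.91 in WT. A region in Scaf8, a protein that binds RNA polymerase II, stood at 9.38 and 4.22 in KO against 61.0 and 68.0 in WT. Of the 9 start regions in the 2 T cell lists, 1 was called higher and 1 lower. Klf2 was higher, at 72.9 and 51.0 in KO against 5.17 and 38.6 in WT, and Cd44 was lower. In the 8 lists of basic cell functions, 4 of 71 start regions were higher and 3 lower. The Il4ra start region, for the receptor chain through which IL-4 acts, was called higher in KO in both states. It stood at 27.5 and 60.9 in Th1 KO against 22.7 and 14.5 in Th1 WT, and at 43.3 and 52.5 in Th2 KO against 29.4 and 13.1 in Th2 WT. In all, 3587 narrow shared regions (46.9%, against 51.7% of all shared regions) were called in none of the 5 comparisons. The share was 61.9% of start regions and 35.7% of distal ones.

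**Figure D5:**
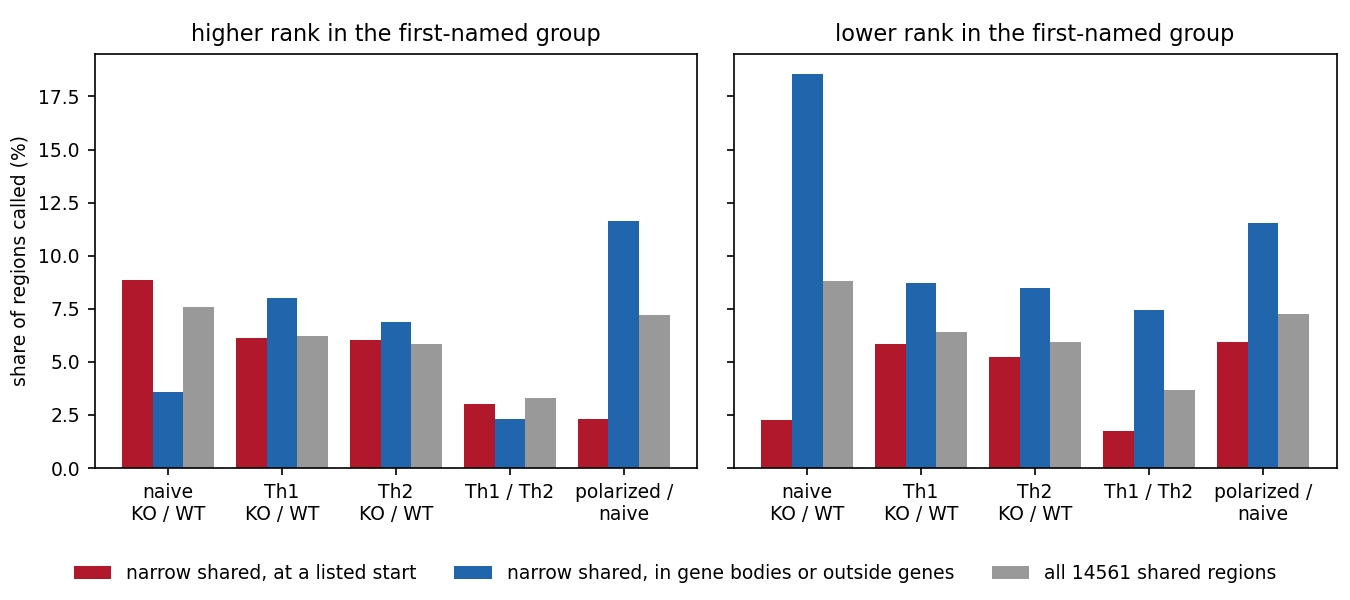
Bars give the percent of regions called higher or lower in rank in each of the 5 comparisons, for narrow shared regions at a listed start, narrow shared regions in gene bodies or outside genes, and all 14561 shared regions. In naive KO against naive WT the distal regions are lower in 18.6% and the start regions in 2.26%, and in Th1 and Th2 cells both directions lie close together.

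Around Ets1 on chromosome 9, 7 narrow shared regions lay within 1 Mb of the gene. Every one has a peak in all KO libraries by the rule, so none can show a complete loss. In the body of Ets1, the region at chr9:32652072-32652750 stood at 49.0 and 43.4 in naive KO against 11.9 and 14.3 in naive WT, and its Th1 and Th2 values overlapped between genotypes. The region at chr9:32722873-32723424 stood at 85.7 and 58.3 in Th1 KO against 42.4 and 10.5 in Th1 WT. The region at chr9:32695638-32696390 stood at 22.3 and 44.9 in naive KO against 10.6 and 16.6 in naive WT, a difference just over the limit. The region at chr9:32743537-32744122 was called in no genotype comparison. The one at chr9:32591681-32592425, 43.8 kb from Ets1, stood at 60.7 and 84.7 in naive KO against 88.9 and 89.4 in naive WT, a difference of -16.5 points. The neighbouring ETS gene Fli1 held a region at chr9:32509732-32510327, at 12.4 and 29.1 in naive KO against 42.4 and 47.2 in naive WT, at 47.8 and 15.2 in Th1 KO against 4.23 and 2.13 in Th1 WT, and at 52.7 and 44.8 in Th2 KO against 77.3 and 66.2 in Th2 WT. It was thus higher in Th1 KO and lower in naive and Th2 KO. The last region, nearest to Barx2, was called in no genotype comparison.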

How the data were processed

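ATAC-seq peak lists of 12 libraries were used as deposited. Per the submitters' processing notes the authors used BWA, Picard and MACS2 with GRCm38; their versions and settings were not stated. Each deposited list held a score per peak, which was 10 times its -log10 q without decimals, and the authors' fold enrichment over background, -log10 p and -log10 q from the peak caller, per the file columns. No peak had a q above 0.1. Coordinates are GRCm38.

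Peaks that overlapped by 1 bp or more were merged with Python 3.11.15 and pandas 2.3.3. Starts came from the RefSeq promoter windows (79.9% of protein-coding genes had one), because the gene table planned for this gives no strand. Motifs were searched in promoter windows, not in whole regions, since no genome was used. Where a library had several peaks in a region the highest score was taken. The code was tested on simulated data. Intervals are Wilson at 95%. The regions, gene lists, marker lists and motifs were chosen with earlier results of these data known. Genes and regions were named by fixed rules: the extremes of width and of median rank, the 5 largest called differences per comparison and direction, up to 4 genes per list, the regions around Ets1, and up to 2 promoters per motif. Exceptions are the 5 top start regions, the CpG promoters printed, and list genes named beyond these. Alternatives covered width limit, q, list length, cover, start distance, rank measure, point limit and each library left out.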

Additional observations from a re-analysis of the deposited data

Results flagged for a closer look

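Some narrow shared regions were called in opposite directions by the knockout comparisons of 2 cell states. There were 82 for naive and Th1 cells, 60 for naive and Th2 cells and 89 for Th1 and Th2 cells. In each of these regions every KO library of one state lay above its WT libraries and every KO library of the other lay below. The difference between states was not tested. The same counts over all shared regions are not given here, so these counts have no background beside them. For comparison, 151 regions were called in the same direction in naive and Th1 cells, 128 in naive and Th2 cells and 118 in Th1 and Th2 cells. The opposite calls were 6.22% of those in naive and 7.21% of those in Th1 cells, 4.55% of naive and 5.81% of Th2 calls, and 7.83% of Th1 and 8.62% of Th2 calls. The Fli1 region near Ets1 is among them.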

How the results depend on the processing

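Counts followed the rule closely. A width limit of 800 bp gave 4203 regions, with 23.9% at starts and a core of 40.1%, and 1500 bp gave 13160, with 46.3% and 40.1%. Peaks with q of 0.01 or less gave 39.3% at starts and a core of 44.3%. Lists of equal length gave 5090 regions, 42.3% and 47.6%, and asking the peaks of each library to cover 50% of the region gave 3563, 47.1% and 53.1%. The start share was 34.3% with the start inside the region, 36.7% within 1000 bp, 38.1% with all genes, and 42.4% with both ends of genes lacking a listed start, an alternative chosen after seeing the data. Ranked by fold enrichment, the median percentile was 55.0. With 10 points in place of 20, higher and lower calls were 1165 and 1924 for naive KO, 1054 and 1076 for Th1 KO, and 949 and 1032 for Th2 KO. With 30 points they were 128 and 317, 205 and 188, and 172 and 185, and for Th1 against Th2 111 and 234. Chosen after seeing the data, Th1 against Th2 gave 399 and 726 without the Th2 KO libraries and 657 and 1035 in WT libraries, and polarized against naive gave 893 and 1328 without the naive KO libraries.

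Leaving out 1 library at a time gave 7803 to 8495 regions, 33.8 to 35.8% at starts and a core of 41.4 to 42.1%. Higher and lower calls were then 435 to 549 and 879 to 1033 for naive KO, 853 to 1056 and 914 to 1002 for Th1 KO, and 854 to 903 and 891 to 970 for Th2 KO. Leaving out any 1 of the 4 Th1 or 4 Th2 libraries moved the knockout counts by over 1.5 times. Fewer values must then fail to overlap, but the same step in naive cells moved the main counts of 431 and 887 less. Ranks of the technical replicates correlated at 0.914 and 0.968 in the naive groups. Those of the 2 libraries within each Th1 and Th2 group correlated at 0.742 to 0.769. These are biological replicates by title, except in Th2 KO cells, whose titles conflict. The part of replicate spread in these changes was not tested. Th1 against Th2 gave 255 to 293 and 446 to 531, and polarized against naive 610 to 666 and 725 to 849. Taking same-numbered Th1 libraries as pairs, an alternative chosen after seeing the data, gave 615 and 634 for Th1 KO with both pairs in 1 direction and the same 20 points. The pairing rests on the number alone. Naive numbers mark technical replicates and Th2 KO titles conflict, so no pairs were formed there. Read depth is unknown, so weak peaks missed in a shallow list cannot be told from closed regions.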

Other observations

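Narrow shared regions also overlapped genes of short noncoding RNAs. Of 408 tRNA genes in the gene table, 30 lay in 24 narrow shared regions and 106 in 69 wide ones, and the narrow regions had a median percentile of 50.2. Rpph1, the RNA of RNase P, which trims tRNA precursors, lay in a region at a median of 95.004 over the 12 libraries. Rn7s2, an RNA of the signal recognition particle, stood at 83.7, and the U3 snoRNA genes Rnu3b1, Rnu3b3 and Rnu3b4 on chromosome 11 stood at 72.0, 82.8 and 64.2. Terc, the RNA template of telomerase, stood lower at 10.2, and the Y RNA gene Rny1 at 34.3. miRNA genes were covered in 20 cases out of 1228 by 19 regions. The T cell receptor constant segment Trac overlapped a region with a median percentile of 60.5, and 5 of 394 variable segments did so. Some of these genes, such as those of tRNAs, have near-identical copies, and the authors' handling of reads that map to several places is unknown.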
